A study of Mus musculus with 374 samples.

Results

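The Ifitm genes are a small family of antiviral membrane proteins, and their transcripts were followed here across the 5 sorted blood cell populations of a mouse single cell experiment. The members were named as a family: Ifitm1, Ifitm2, Ifitm3 and Ifitm6. Of these 4 genes, 3 had a row among the 19829 mouse genes counted (Ifitm1, ENSMUSG00000025491; Ifitm3, ENSMUSG00000025492; Ifitm6, ENSMUSG00000059108), and Ifitm2 is not analysed here. Together these 3 genes are described in 374 wells, each holding 1 index-sorted cell.

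All cells came from 1 female C57BL/6 mouse, 10 to 13 weeks old, with no mutant allele or treatment named in the labels, and were profiled on 1 plate with an adapted CEL-seq2 protocol, which counts unique molecular identifiers (UMIs) at the 3′ ends of polyadenylated RNA. The bone marrow gave granulocytes (labelled Grans; Mac1+ Gr1+; 96 wells), progenitor/stem cells (LSK; Lin- Kit+ Sca1+; 95 wells), erythroblasts (EryB; Ter119+ CD44+ with mid to high FSC-A, the forward scatter that tracks cell size; 96 wells) and B lymphocytes (B_Lymph; B220+ with low FSC-A; 44 wells). T lymphocytes (T_Lymph; CD3+ with low FSC-A; 43 wells) came from the thymus of that mouse, so population and tissue of origin cannot be told apart for them. Each population also filled plate rows of its own, so population and plate position cannot be told apart. Since each population is 1 sample, no test between populations was possible, and no p-value is given. Intervals are 95% exact intervals (Poisson for a sum of UMIs, Clopper-Pearson binomial for a share of wells, conditional binomial for a ratio) and cover counting error only. Levels are in CPM, the UMIs of a gene per 1000000 UMIs on mouse genes summed over the wells of a population.

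Ifitm proteins sit in the plasma membrane and in endosomal and lysosomal membranes, where they hinder the fusion of enveloped viruses with the host cell. Several are induced by type I and type II interferon through response elements in their promoters, and Ifitm3 is the best studied restriction factor of the family against influenza viruses. Stem and germ cells are also known to express Ifitm genes without an interferon stimulus.

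The 3 genes lie close together on mouse chromosome 7 (GENCODE M21 on GRCm38). Ifitm1 spans chr7:140967221-140969825 on the plus strand, Ifitm3 chr7:141009586-141010770 and Ifitm6 chr7:141015699-141017924, both on the minus strand. Ifitm3 and Ifitm6 are 4928 bases apart, and Ifitm1 and Ifitm3 are 39760 bases apart. No other annotated gene overlaps any of the 3. The sequences before their start sites are shown because interferon is known to act on several genes of the family through elements near the start, and the windows differ in them. Each window runs from 250 bases before to 30 bases after the start in RefSeq (GRCm38.p6), written 5′ to 3′ on the strand of the gene, with capitals for every match to the motifs searched.
Ifitm1 (chr7:140967826-140968105, plus strand): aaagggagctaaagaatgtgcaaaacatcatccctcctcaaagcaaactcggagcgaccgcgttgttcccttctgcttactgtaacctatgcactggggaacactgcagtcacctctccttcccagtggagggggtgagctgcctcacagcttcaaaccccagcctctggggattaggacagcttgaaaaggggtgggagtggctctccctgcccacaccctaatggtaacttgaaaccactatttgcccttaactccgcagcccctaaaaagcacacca
Ifitm3 (chr7:141010715-141010994, minus strand): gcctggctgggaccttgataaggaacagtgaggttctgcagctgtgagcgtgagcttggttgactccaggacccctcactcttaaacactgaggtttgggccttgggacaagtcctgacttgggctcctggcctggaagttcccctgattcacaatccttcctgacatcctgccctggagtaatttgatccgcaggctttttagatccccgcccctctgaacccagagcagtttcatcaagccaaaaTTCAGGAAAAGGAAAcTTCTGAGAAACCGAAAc
Ifitm6 (chr7:141016863-141017142, minus strand): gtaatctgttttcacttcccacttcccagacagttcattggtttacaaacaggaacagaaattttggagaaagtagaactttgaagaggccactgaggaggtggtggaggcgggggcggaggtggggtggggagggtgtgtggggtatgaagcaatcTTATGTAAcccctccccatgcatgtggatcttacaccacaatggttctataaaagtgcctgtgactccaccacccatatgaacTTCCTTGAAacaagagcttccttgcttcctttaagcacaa
The motifs searched on both strands were the interferon-stimulated response element (GAAA, any 2 bases, GAAA), the gamma activated site TTCNNNGAA, the C/EBP motif TTNNGNAA, the PU.1 motif GAGGAA and the GATA motif AGATAA. The Ifitm3 window held the interferon-stimulated response element at 2 places, GAAAAGGAAA at bases 3 to 12 after the start and GAAACCGAAA at bases 20 to 29. Between them lay a gamma activated site, TTCTGAGAA, at bases 14 to 22, which overlaps the second element. A C/EBP match, TTCAGGAA, ran from 3 bases before the start to base 5 and overlaps the element at bases 3 to 12. The Ifitm6 window held no interferon-stimulated response element but a gamma activated site, TTCCTTGAA, from 10 to 2 bases before the start, and a C/EBP match, TTATGTAA, from 93 to 86 bases before it. The Ifitm1 window held none of these letters. Across the 32851 RefSeq windows of the same length, 3.28% held the interferon-stimulated response element, 7.83% TTCNNNGAA, 39.2% TTNNGNAA, 26.0% GAGGAA and 10.7% AGATAA. These are matches of letters and not mapped binding sites, and the window depends on the annotation: the RefSeq start lies 26 bases downstream of the GENCODE gene start for Ifitm3, 855 for Ifitm1 and 1032 for Ifitm6.

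Because the members are paralogs, reads of a gene can match a sister gene. The longest open reading frames are 318 bases in Ifitm1, 411 in Ifitm3 and 372 in Ifitm6, and aligned end to end with gaps counted they were 66.4% identical between Ifitm1 and Ifitm3, 61.5% between Ifitm1 and Ifitm6 and 60.7% between Ifitm3 and Ifitm6. In the last 400 bases of the transcripts, where this protocol reads, Ifitm1 and Ifitm3 shared 10 of 370 stretches of 31 bases (2.70%), and Ifitm6 shared none with either. The gene model Gm7676 shared 11.6% of these stretches with Ifitm1 and 13.0% with Ifitm3. It was given 29 UMIs, 21 of them in progenitor/stem cells and 7 in granulocytes. With all genes outside the family list together, Ifitm3 shared 92 of 370 stretches (24.9%), Ifitm1 shared 43 of 370 and Ifitm6 none. For Ifitm3 these genes included Gm11951, given 18 UMIs, 13 of them in progenitor/stem cells, and Gm6885, given 2. They also included Gm45717 and AC121299.1, which are not analysed here. Counts of Ifitm1 and Ifitm3 may be split with such genes, and how many was not measured.

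The depth behind these values ranged from 135808 mouse UMIs in B lymphocytes over 200396 in T lymphocytes, 403506 in granulocytes and 666728 in erythroblasts to 834812 in progenitor/stem cells. Every gene of the marker lists of the 5 populations was highest in the population it should mark. The lists were chosen with earlier results of these data known, so this is no independent check of the labels. In 7 wells the profile correlated best with another population, among them 2 granulocyte wells nearest progenitor/stem cells and 2 B lymphocyte wells nearest granulocytes. They are kept. The granulocyte wells had a median of 3880 mouse UMIs against 7959 in progenitor/stem wells.

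Ifitm3 was the most widely detected member, seen in 219 of the 374 wells. Its summed counts were 368 UMIs in granulocytes, 268 in progenitor/stem cells, 106 in erythroblasts, 7 in T lymphocytes and 6 in B lymphocytes. As a level this was 912 CPM (821 to 1010) in granulocytes, 321 CPM (284 to 362) in progenitor/stem cells and 159 CPM (130 to 192) in erythroblasts. The lymphocytes were far below, with 44.2 CPM (16.2 to 96.2) in B and 34.9 CPM (14.0 to 72.0) in T lymphocytes. Granulocytes were thus 2.84 times (2.42 to 3.34) above progenitor/stem cells, and these were 2.02 times (1.61 to 2.55) above erythroblasts, an order that turned when wells were scaled by scran size factors. The ratio of progenitor/stem cells to erythroblasts was 1.11 with TMM factors, 1.56 with globin genes left out of the total and 2.19 with ERCC scaling. Erythroblasts were 3.60 times (1.60 to 10.0) above B lymphocytes, while B and T lymphocytes did not differ beyond their counting error (1.26 times, 0.351 to 4.39). Of the 6 UMIs in B lymphocytes, 4 came from the well A8, in which granulocyte markers made up 11.4% of the UMIs, and without it the level was 15.2 CPM.

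In granulocytes, 81 of 96 wells (84.4%, 75.5 to 91.0%) held an Ifitm3 UMI, and the wells ran from 0 over a median of 2 to 35 UMIs. In progenitor/stem cells 82 of 95 wells (86.3%, 77.7 to 92.5%) held it, from 0 over a median of 2 to 9 UMIs. The shares were close, and the wells differed in the upper tail: 11 granulocyte wells and 0 progenitor/stem wells reached 10 UMIs. Per well the granulocytes held 3.83 UMIs and the progenitor/stem cells 2.82, a ratio of 1.36. In erythroblasts 46 of 96 wells (47.9%) held an Ifitm3 UMI, against 7 of 43 T lymphocyte wells and 3 of 44 B lymphocyte wells. With each well thinned to 1000 mouse UMIs, the share was 50% of 94 granulocyte wells, 27.4% of 95 progenitor/stem wells and 13.7% of 95 erythroblast wells. Each row of the plate held a single population. The levels spanned 717 to 1068 CPM over the 4 granulocyte rows, 279 to 377 CPM over the 4 progenitor/stem rows and 141 to 195 CPM over the 4 erythroblast rows.

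Ifitm6 was found mainly in granulocytes. It had 713 UMIs in granulocytes, 35 in progenitor/stem cells, 31 in erythroblasts, 14 in T lymphocytes and 8 in B lymphocytes, so 89.0% of its 801 UMIs fell in granulocytes. The level was 1767 CPM (1640 to 1902) in granulocytes, 69.9 CPM (38.2 to 117) in T lymphocytes, 58.9 CPM (25.4 to 116) in B lymphocytes, 46.5 CPM (31.6 to 66.0) in erythroblasts and 41.9 CPM (29.2 to 58.3) in progenitor/stem cells. Granulocytes were 25.3 times (15.0 to 46.5) above the next population and 42.2 times (30.0 to 61.0) above progenitor/stem cells. In summed CPM no pair among the other 4 populations differed beyond counting error, and their order depended on the scaling. Erythroblasts stood at 1.11 times the progenitor/stem level, which became 2.02 with TMM factors and 3.18 with scran size factors. The ratio of T lymphocytes to erythroblasts turned to 0.596 with scran size factors, and that of B lymphocytes to progenitor/stem cells to 0.561 with ERCC scaling. Of the 8 UMIs in B lymphocytes, 3 came from the well A8, and without it the level was 38.1 CPM. An Ifitm6 UMI was found in 81 of 96 granulocyte wells (84.4%), which ran from 0 over a median of 4.5 to 30 UMIs, and 30 wells held 10 or more. Elsewhere no well held more than 3 UMIs. After thinning to 1000 UMIs, 61.7% of granulocyte wells held the gene and 2.11 to 7.14% of the wells of each other population. The granulocyte rows lay between 1299 and 1992 CPM.

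Ifitm1 was highest in progenitor/stem cells instead. It had 222 UMIs in progenitor/stem cells, 42 in granulocytes, 6 in erythroblasts, 4 in T lymphocytes and 0 in B lymphocytes. The level was 266 CPM (232 to 303) in progenitor/stem cells and 104 CPM (75.0 to 141) in granulocytes, against 20.0 CPM (5.44 to 51.1) in T lymphocytes and 9.00 CPM (3.30 to 19.6) in erythroblasts. In B lymphocytes 0 of 44 wells held a UMI, which by the limit of 3 counts allows a share of wells with a UMI of up to 6.82% and a level of up to 22.1 CPM (exact 95% upper limits 8.04% and 27.2 CPM). Progenitor/stem cells were 2.56 times (1.83 to 3.64) above granulocytes in summed CPM, an order that was lost with scran size factors (0.955 times). They were 29.6 times (13.4 to 81.4) above erythroblasts, a ratio that was 6.16 with scran size factors and 10.2 with the mean of well CPM. Both of these values include the erythroblast well C5, which had 466 mouse UMIs and 1 Ifitm1 UMI (2146 CPM). With only wells of at least 1000 mouse UMIs, the ratio of summed CPM was 35.4. Progenitor/stem cells were 12.0-fold higher than B lymphocytes when the 0 UMIs there were set to the 3-count limit over the whole population. From the 0 UMIs themselves, the lower 95% limit of this ratio was 9.71. T lymphocytes and erythroblasts did not differ beyond counting error.

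At full depth, Ifitm1 was found in most progenitor/stem wells and in fewer granulocyte wells. It was seen in 74 of 95 progenitor/stem wells (77.9%, 68.2 to 85.8%), with a median of 2 and a maximum of 10 UMIs. In granulocytes it was seen in 21 of 96 wells (21.9%, 14.1 to 31.5%), with a median of 0 and a maximum of 8. With each well thinned to 1000 mouse UMIs, the share was 25.3% (16.9 to 35.2%) of 95 progenitor/stem wells and 13.8% (7.57 to 22.5%) of 94 granulocyte wells, and these intervals overlap. Thinned to 2000 UMIs, it was 37.9% (28.1 to 48.4%) of 95 and 15.1% (8.30 to 24.5%) of 86 wells. When each granulocyte well counted equally, the mean was 169 CPM, above the 104 CPM of the sum, while in progenitor/stem wells the mean was 304 CPM. The granulocyte rows ranged from 34.3 to 168 CPM and the progenitor/stem rows from 211 to 330 CPM. No row held both populations, so the rows show the spread within a population and are not replicates.

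**Figure D1:**
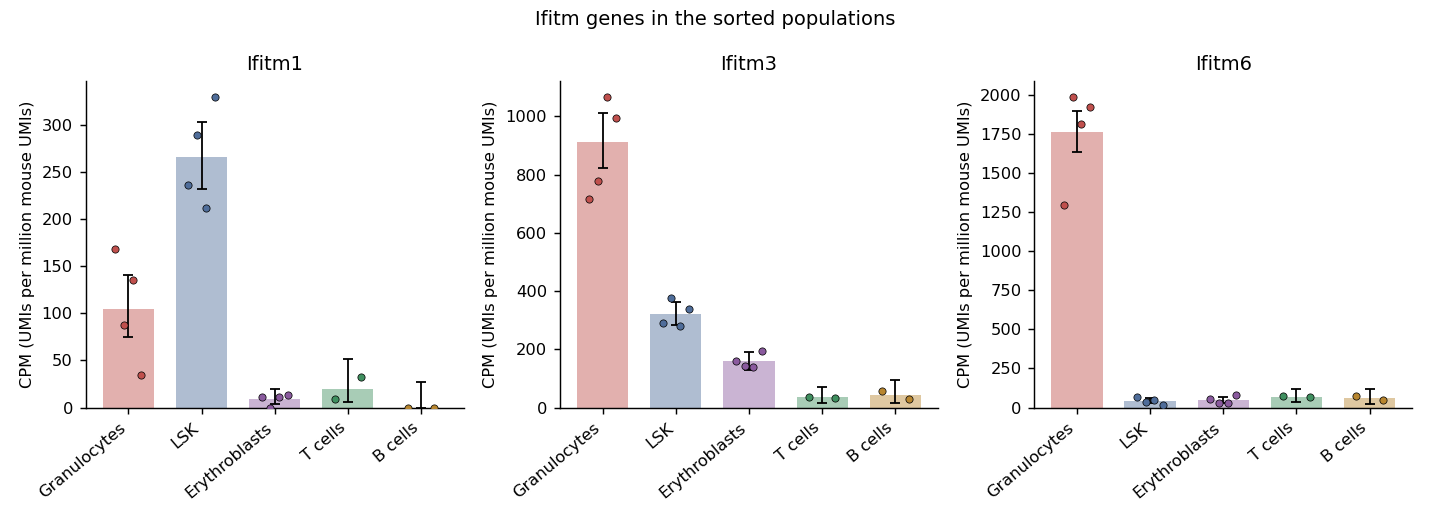
Level of Ifitm1, Ifitm3 and Ifitm6 in CPM (bars, summed UMIs per 1000000 mouse UMIs, linear axes that differ between panels) in the 5 populations, with 95% Poisson intervals for counting error and points for the plate rows. Ifitm6 stands at 1767 CPM in granulocytes and below 70 CPM elsewhere, Ifitm3 falls from granulocytes over LSK progenitor/stem cells to erythroblasts, and Ifitm1 is highest in LSK cells; scran size factors turn the LSK to erythroblast order of Ifitm3 and the LSK to granulocyte order of Ifitm1.

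**Figure D2:**
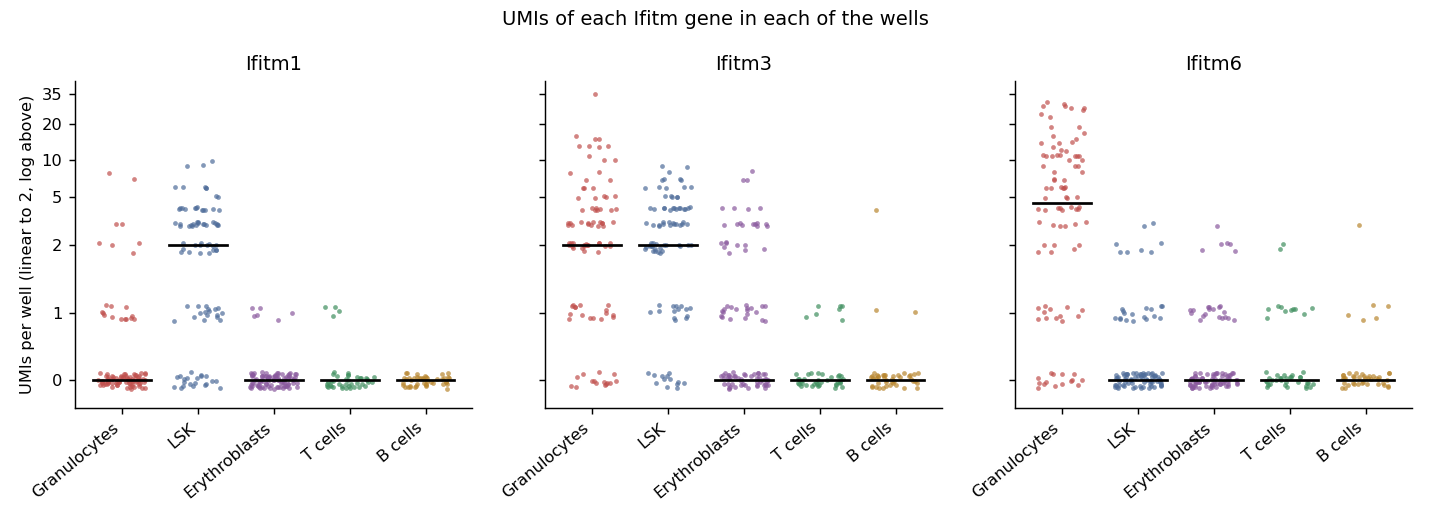
UMIs of each gene in each of the 374 wells (points, shifted slightly so that equal counts can be seen; vertical axis linear to 2 and logarithmic above) with the median of each population as a black line. Ifitm6 reaches 30 UMIs in a granulocyte well and at most 3 in any other well, Ifitm3 reaches 35 in granulocytes, and Ifitm1 has a median of 2 in LSK cells and of 0 in every other population.

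To place these ratios among all genes, a gene was called where its CPM differed at least 4-fold and the pair of populations held at least 50 of its UMIs, with sums under 3 set to 3. Between granulocytes and progenitor/stem cells, 6.51% of 4440 genes were called higher in granulocytes, and of the 3 members this was Ifitm6 alone. In the other direction 18.9% of genes were called, and no member. With TMM factors these shares were 11.2% and 7.57%, and Ifitm3 was called higher in granulocytes as well, whereas with ERCC scaling they were 4.10% and 41.7%, and Ifitm1 was called higher in progenitor/stem cells. Over erythroblasts, Ifitm3 and Ifitm6 were called higher in granulocytes (18.5% of all genes), and Ifitm1 was called higher in progenitor/stem cells (21.6%). The Ifitm3 ratio of granulocytes to erythroblasts was 5.74, and 5.38 with TMM factors. It fell under the 4-fold cut with scran size factors (3.69) and with ERCC scaling (3.20). Over T and B lymphocytes, the members called in granulocytes were Ifitm3 and Ifitm6, with 15.1% and 17.5% of all genes. Ifitm1 had fewer than 50 UMIs in granulocytes together with erythroblasts, T or B lymphocytes, and was not tested there. With a minimum of 20 UMIs it was called higher in granulocytes over each of the 3. Of all genes, 19.9%, 10.5% and 9.38% were then called, in that order. The members called in progenitor/stem cells over T and B lymphocytes were Ifitm1 and Ifitm3, where 5.99% and 5.27% of all genes were called. Ifitm6 had fewer than 50 UMIs in these pairs and was not tested. Erythroblasts over T lymphocytes added Ifitm3, the only member tested there (17.7% of all genes).

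The low levels were set beside genes that mark the population with the highest level, since RNA of lysed cells and misassigned barcodes can put UMIs in any well. The 8 granulocyte markers stood in progenitor/stem cells at 1.02 to 4.45% of their granulocyte level, and Ifitm6 at 2.37%. In erythroblasts Ifitm6 stood at 2.63% (markers 0.607 to 3.17%), in T lymphocytes at 3.95% (1.43 to 6.75%) and in B lymphocytes at 3.33% (1.46 to 13.6%). The B lymphocyte values include the well A8, rich in granulocyte markers, which held 3 UMIs of Ifitm6 and 4 of Ifitm3. The marker range was not computed without it. Ifitm6 was thus within the range of the granulocyte markers in all 4 populations. It was above 5 of the 8 markers in progenitor/stem cells, 6 in erythroblasts, 5 in T lymphocytes and 3 in B lymphocytes, and the source of these UMIs was not tested. The lymphocyte levels of Ifitm3, at 3.83% in T and 4.84% in B lymphocytes, were within these ranges as well. Ifitm3 in progenitor/stem cells (35.2% of the granulocyte level) and in erythroblasts (17.4%) was above all 8 markers. Ifitm1 in granulocytes stood at 39.1% of its progenitor/stem level, above all 6 progenitor/stem markers (0 to 5.93%), whereas in erythroblasts it stood at 3.38%, inside their range of 2.02 to 5.67%.

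Granulocyte wells were then described by other genes, because bone marrow cells in a Mac1+ Gr1+ gate can stand at several stages of neutrophil development and can include monocytes. The share of UMIs on a list of monocyte genes (Csf1r, Ccr2, F13a1, Ms4a6c, Ly6c2, Fn1 and Ctss) and on a list of specific granule genes, which neutrophil precursors make (Ltf, Camp, Ngp, Lcn2 and Chil3), divided the 94 wells with at least 1000 mouse UMIs into 3 ranges. The cuts were chosen after the values were seen and mark ranges, not cell types. A monocyte list share of 0.5% or more was found in 13 wells, with no well between 0.391% and 0.707%. Of the other wells, 43 had a specific granule share of 2% or more and 38 a lower share, and 8 wells lay within 1.5-fold of that cut. No Ifitm gene was used in either list. The 13 wells also had low Gr1 fluorescence, 736 to 3007 units, against medians of 16440 and 23338 in the other ranges. The wells low in specific granule genes had the highest median share of late neutrophil genes (Mmp8, Mmp9, Retnlg, Cxcr2 and Il1b), 2.94% against 1.53% in the wells high in specific granule genes and 0.0614% in the wells high in the monocyte list.

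Each member peaked in a different range. Ifitm3 stood at 1818 CPM (1553 to 2116; 167 UMIs) in the 13 wells high in the monocyte list, at 655 CPM (550 to 775; 136 UMIs) in the wells high in specific granule genes and at 624 CPM (482 to 796; 65 UMIs) in those low in them. The 13 wells were 2.77 times (2.20 to 3.50) above the wells high in specific granule genes, and the other ranges did not differ beyond counting error. They ran from 0 over a median of 13 to 35 Ifitm3 UMIs, and the wells of the other ranges reached at most 8. Without these 13 wells, Ifitm3 in granulocytes was 2.01 times the progenitor/stem level.

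Ifitm6 stood at 2839 CPM (2614 to 3078) in the 43 wells high in specific granule genes, where every well held at least 2 UMIs and the median was 11. It stood at 749 CPM (592 to 935) in the wells low in specific granule genes and at 501 CPM (367 to 668) in the wells high in the monocyte list. The wells high in specific granule genes were 3.79 times (2.99 to 4.86) above the wells low in them and 5.67 times above the wells high in the monocyte list. Across the 94 wells, the rank correlation of the CPM of Ifitm6 with the specific granule share was 0.784, and it was 0.784 over the 81 wells left without the monocyte list wells. Both measures share the total of the well, and over those 81 wells the rank correlation of Ifitm6 with that total was 0.568.

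Ifitm1 was found at the other end. It stood at 355 CPM (250 to 490) in the 38 wells low in specific granule genes, with 37 UMIs in 17 wells and at most 8 in a well. The 43 wells high in specific granule genes held 4 UMIs (19.3 CPM, 5.25 to 49.4) and the 13 wells high in the monocyte list held 1 (10.9 CPM). The wells low in specific granule genes were 18.4 times (6.62 to 71.2) above the wells high in them. These wells were the shallowest, with a median of 2493 mouse UMIs against 4509 and 5746. Over the 94 wells, the rank correlation of the CPM of Ifitm1 with the mouse UMIs of the well was -0.425, and the part of depth was not tested. Between members, the rank correlation of CPM across the 94 wells was -0.0208 for Ifitm3 and Ifitm6, -0.345 for Ifitm1 and Ifitm6 and -0.0803 for Ifitm1 and Ifitm3.

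**Figure D3:**
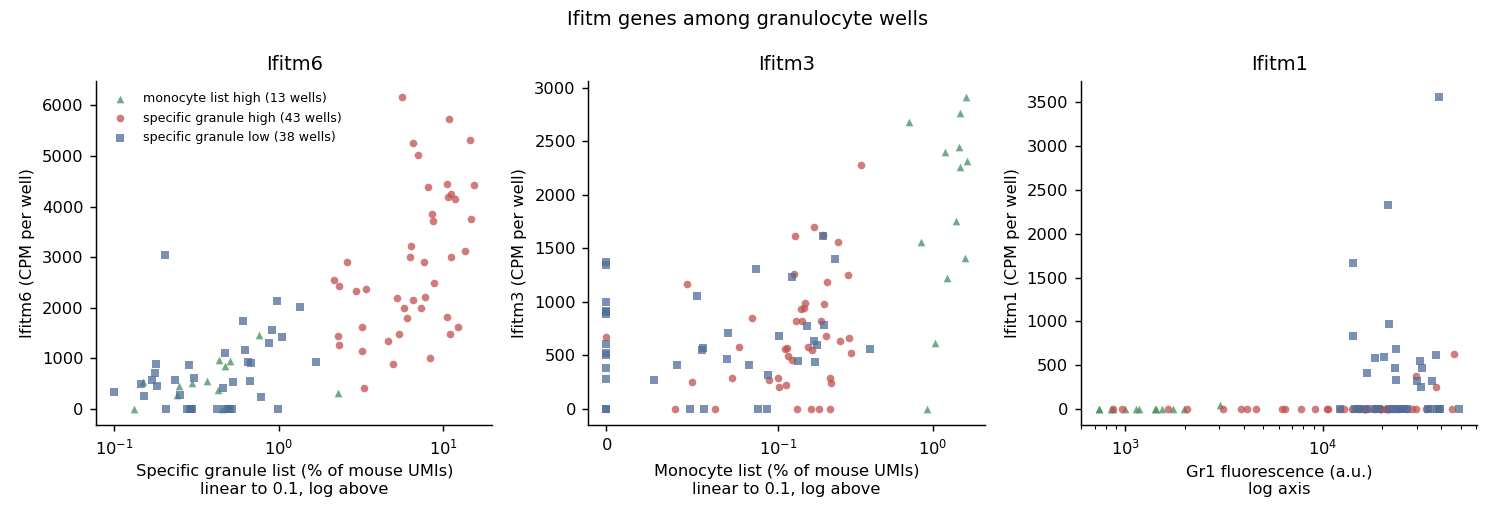
CPM per well in the 94 granulocyte wells for Ifitm6 against the share of UMIs on specific granule genes, Ifitm3 against the share on monocyte genes (horizontal axes linear to 0.1% and logarithmic above) and Ifitm1 against Gr1 fluorescence in arbitrary units (logarithmic axis), with symbols for the 3 ranges of 13, 43 and 38 wells. Ifitm6 climbs with the specific granule share, the 13 wells high in the monocyte list hold most of the highest Ifitm3 values, and Ifitm1 sits in wells of high Gr1.

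The fluorescence recorded for each cell at the sort divides the wells without use of any transcript. Granulocyte wells were divided at the median Gr1 signal of 18601 units into 48 low and 48 high wells. Ifitm1 had 33 UMIs (201 CPM) in the high and 9 (37.7 CPM) in the low wells, 5.33 times (2.49 to 12.7) higher with high Gr1. Ifitm3 had 112 UMIs (681 CPM) in the high and 256 (1071 CPM) in the low wells, a ratio of 0.636 (0.505 to 0.797) that became 1.13 without the 13 wells high in the monocyte list. Ifitm6 had 263 UMIs (1599 CPM) against 450 (1883 CPM), a ratio of 0.849 (0.727 to 0.991), which was 0.582 without those wells. Divided at the median of Mac1, the ratio of high to low wells was 1.44 (1.23 to 1.68) for Ifitm6, 0.996 (0.807 to 1.23) for Ifitm3 and 0.520 (0.261 to 1.01) for Ifitm1. High and low Gr1 wells also differed in depth, with medians of 3094 and 4712 mouse UMIs, and the part of depth in these ratios was not tested.

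Within the progenitor/stem gate the members varied little with the recorded surface markers. Wells with high c-Kit, the receptor of stem cell factor, held 1.38 times (1.05 to 1.82) the Ifitm1 level of wells with low c-Kit, 309 against 224 CPM. For Ifitm3 the ratio was 0.833 (0.650 to 1.07). Divided at the median of Sca-1, the ratio was 1.25 (0.950 to 1.64) for Ifitm1 and 1.04 (0.811 to 1.33) for Ifitm3, neither beyond counting error. The rank correlation of Ifitm1 with the fluorescence itself was 0.0694 for c-Kit and 0.181 for Sca-1. Across the 95 wells, the rank correlation of Ifitm1 with the share of UMIs on genes of the stem cell end of the gate (Procr, Hlf, Meis1, Mllt3 and Ly6a) was 0.257, and with the lymphoid-primed end (Flt3, Cd34, Il7r and Dntt) it was -0.112. For Ifitm3 these values were -0.00821 and -0.0965. With a median of 2 UMIs per well, such weak values are no finding. In erythroblasts Ifitm3 did not differ beyond counting error by CD44 (0.844, 0.565 to 1.27) or by FSC-A (0.971, 0.651 to 1.45), both of which fall as erythroblasts mature.

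Members were seen together about as often as their single shares give. Ifitm3 and Ifitm6 were both found in 71 of 96 granulocyte wells, where the product of their shares gives 68.3, and in 5 wells neither was found. Ifitm1 and Ifitm3 were both found in 65 of 95 progenitor/stem wells, where the product gives 63.9. At least 1 of the 3 members was seen in all but 1 progenitor/stem well and all but 5 granulocyte wells, while 36 of 96 erythroblast wells, 25 of 43 T lymphocyte wells and 36 of 44 B lymphocyte wells held none. Among those 5 granulocyte wells, G3 and G5 had only 69 and 8 mouse UMIs. These counts are at full depth, with median mouse UMIs per well from 3028.5 in B lymphocytes to 7959 in progenitor/stem cells. The remaining Ifitm genes were near zero: Ifitm5, an osteoblast gene, had 3 UMIs in all wells, Ifitm7 had 13 and Ifitm10 had 8, of which 7 were in granulocytes.

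The genes most alike in pattern were taken by the overlap of their 5 CPM values, each set scaled to a sum of 1, among 3904 other genes with at least 100 UMIs. An overlap of 1 means the same profile. Ifitm6 was closest to Ly6c2, the Ly6C antigen of monocytes and neutrophil precursors (overlap 0.981; 1445 CPM in granulocytes and 46.7 CPM in progenitor/stem cells), then to Wfdc21 (0.977) and Nhsl2 (0.974). Ifitm1 was closest to Adgrg3, an adhesion G protein-coupled receptor (0.937; 283 CPM in progenitor/stem cells and 109 CPM in granulocytes), then to Bri3bp (0.922) and Gcnt2 (0.909). Ifitm3 was closest to Vcl, which encodes the adhesion protein vinculin (0.910; 223, 45.5 and 46.5 CPM in granulocytes, progenitor/stem cells and erythroblasts), then to Sephs2 (0.909) and the kinase gene Mapk3 (0.906). The members themselves overlapped less, at 0.718 for Ifitm3 and Ifitm6, 0.525 for Ifitm1 and Ifitm3 and 0.340 for Ifitm1 and Ifitm6.

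Other genes of the interferon pathway had other profiles. The receptor genes were spread out: of the 4, Ifnar2 and Ifngr1 were highest in progenitor/stem cells, Ifngr2 in granulocytes and Ifnar1 in T lymphocytes. Of 8 signalling genes with at least 50 UMIs, 7 were highest in T lymphocytes, among them Stat2, Irf7, Usp18 and, by 34.9 against 34.7 CPM in progenitor/stem cells, Tyk2, and Irf8 was highest in B lymphocytes. Of 13 interferon-induced effectors with at least 50 UMIs, 7 were highest in T lymphocytes, 2 in granulocytes, 2 in progenitor/stem cells, 1 in erythroblasts and 1 in B lymphocytes. For Isg15, Ifit2, Trim25 and Eif2ak2 the interval in T lymphocytes overlapped that of the next population. It did not for Ifit1, Ifi27l2a and Zbp1. Among the signalling genes highest in T lymphocytes, the intervals overlapped in this way for Jak2, Tyk2, Stat2, Irf1 and Irf7. Across all 6317 genes with as many UMIs, 20.9% were highest in T lymphocytes, 14.1% in granulocytes and 31.9% in progenitor/stem cells. These highest populations are by summed CPM alone. Whether they hold under other scalings was not tested.

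Ifit1, an effector that binds viral RNA, had 409 CPM (82 UMIs) in the thymic T lymphocytes and 66.9 CPM in granulocytes, and Zbp1, a sensor of nucleic acids, had 165 CPM against 17.3 CPM. Ifitm3 had the reverse order, 34.9 CPM in T lymphocytes and 912 CPM in granulocytes. Rsad2, which encodes viperin, was highest in erythroblasts (486 CPM, 324 UMIs), and Samhd1, a dNTP hydrolase, in granulocytes (815 CPM, 329 UMIs). The median log2 ratio of granulocytes over T lymphocytes was -0.73 over 8 effectors tested and -0.33 over all 1961 genes tested, where Ifitm3 had 4.71 and Ifitm6 4.66. Of the 12 effectors with a RefSeq start window, 7 held the interferon-stimulated response element (58.3%), against 3.80% of all genes with a window. Among the members with a row, Ifitm3 alone held it.

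**Figure D4:**
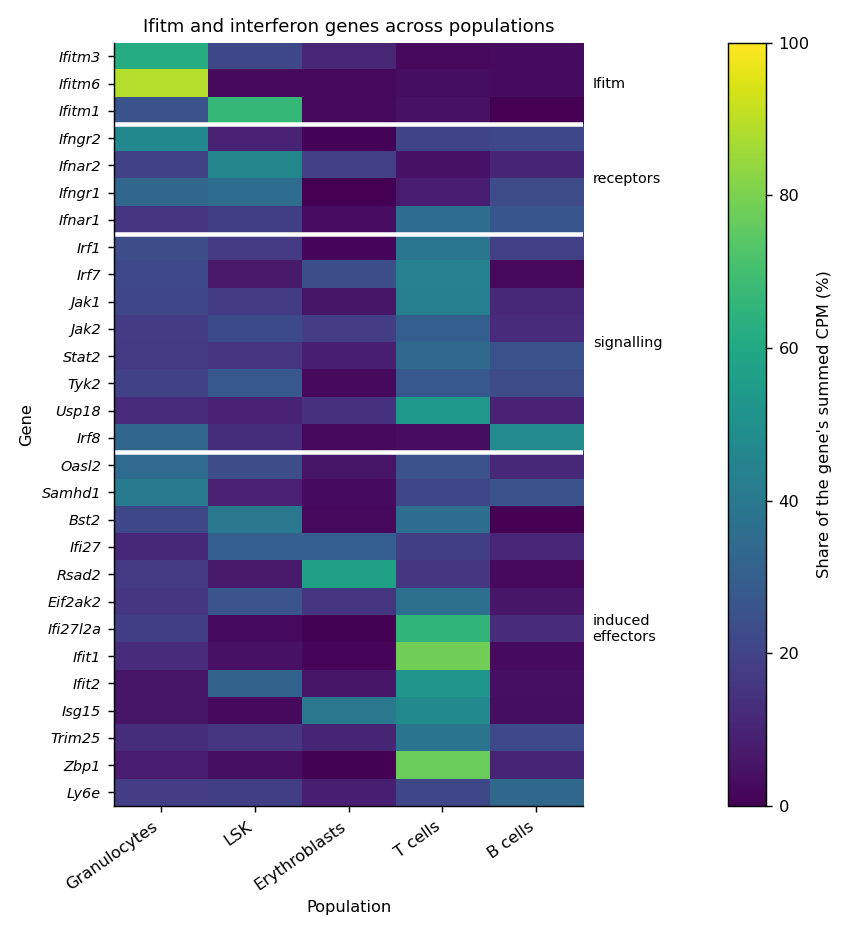
Share of the summed CPM of each gene that falls in each population (colour, 0 to 100%), for the 3 Ifitm genes and the interferon receptors, signalling genes and induced effectors with at least 50 UMIs, in columns by population. Ifitm6 and Ifitm3 are brightest in granulocytes and Ifitm1 in LSK cells, whereas 7 of 13 induced effectors, Ifit1 and Zbp1 among them, are brightest in T cells.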

How the data were processed

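Cells of 1 mouse were index-sorted into wells of 1 plate and processed with an adapted CEL-seq2 protocol. The authors aligned and counted the reads with scPipe, which assigns reads to exons, splits wells by barcode and merges UMIs, and deposited the resulting table of UMI counts, unnormalized, with ERCC spike-ins as further rows. Which genome build, annotation and strand setting they counted with is not given in the sources used here. Wells were grouped by the cell type in their labels. Of the count columns, 374 matched a labelled well, and 9 that matched none were not used. Ensembl IDs were matched to symbols through a table of Ensembl gene names, and Ifitm2 and the listed genes Irf9, Rtp4, Cx3cr1 and Fgd5 are not analysed here. A few other listed genes are not reported here and were left out of the lists. No well was removed, and doublets were not searched for. Each well was meant to hold 1 cell.

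UMI counts were summed per population and divided by the mouse total, leaving spike-ins out. Intervals, thinning (to 1000 or 2000 UMIs) and ratios were computed with Python 3.11.15, scipy 1.17.1 and pandas 2.3.3, scran 1.30.0 size factors and edgeR 4.0.16 TMM factors with R 4.3.3, and figures with matplotlib 3.10.9. The interval and call rules were run on simulated sums with counting error alone, which cannot show how they do with spread between wells. With 1 sample per population no test was run, and the depth, 135808 to 834812 mouse UMIs, sets the intervals. The genes named are all members, the other Ifitm genes, the 3 genes most alike in profile and listed genes that a result turns on. Members and lists were chosen with earlier results of these data known. Alternatives were other scalings, minima, folds, cuts and sets of wells.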

Additional observations from a re-analysis of the deposited data

How the results depend on the processing

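Values are log2 ratios, with the reported value given as such. All intervals cover counting error alone, 1 mouse stands behind every value, and lymphocyte levels rest on 14 UMIs or fewer, which sets what can be told apart there. ERCC scaling, the changes of the cuts, the leaving out of the 13 granulocyte wells high in the monocyte list and every alternative for the ranges of granulocyte wells were chosen after seeing the data.

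Granulocytes over progenitor/stem cells depended on the scaling, since TMM factors raised this ratio of every gene by 0.77 and ERCC scaling lowered it by 0.96, while the median over all genes tested stood at -0.76. Ifitm3 went from 1.51 to 2.28 with TMM, 2.18 with scran, 0.55 with ERCC scaling and 1.01 without the 13 wells. Ifitm1, progenitor/stem cells over granulocytes, went from 1.35 to 0.58 with TMM, 0.84 with the mean of well CPM and 2.31 with ERCC scaling, and turned to -0.067 with scran. Ifitm3, progenitor/stem cells over erythroblasts, turned to -0.29 with scran, and as a fold it was 1.11 with TMM against 2.02. Ifitm6, granulocytes over T lymphocytes, lay between 4.31 and 5.41 under all 11 alternatives, against 4.66.

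Among granulocyte wells by Gr1, the high over low ratio of Ifitm1 went from 2.41 to 5.37 between the outer tertiles. The latter value rests on 23 UMIs against 1, with an interval of 6.72 to 1706 as a fold, so its size is not fixed. Ifitm3 went from -0.65 to -1.24 with ERCC scaling and turned to 0.17 without the 13 wells. Ifitm6 went from -0.24 to -0.46 with the mean of well CPM, -0.82 with ERCC scaling and -0.78 without the 13 wells. Between ranges, Ifitm6 in wells high over low in specific granule genes went from 1.92 to 1.52 with a cut of 4% and 2.71 with ERCC scaling, Ifitm3 in wells high in the monocyte list over wells high in specific granule genes from 1.47 to 2.10 with ERCC scaling, and Ifitm3 in wells high over low in specific granule genes from 0.07 to 0.86 with ERCC scaling. Ifitm1 in wells low over high in specific granule genes stayed between 3.41 and 5.53 under all 6 alternatives. The cause of these shifts was not tested.

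The genes called in granulocytes over progenitor/stem cells numbered 289, 441 with a minimum of 20 UMIs, 607 at 2-fold, 497 with TMM and 182 with ERCC scaling, and in the other direction 837, 1536, 1894, 336 and 1850. Erythroblasts over T lymphocytes gave 462, and 752 at 2-fold. No paired analysis was possible because the result comes from no test and no replicate of a population exists.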

Other observations

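Genes whose products are known to bind or modify Ifitm proteins, listed with the members, had profiles of their own. Cd81, a tetraspanin, was highest in progenitor/stem cells (144 CPM, 120 UMIs) with 125 CPM in B lymphocytes. In B lymphocytes Ifitm1 had 0 UMIs, and Ifitm3 stood at 44.2 CPM, 4 of its 6 UMIs in the well A8. Nedd4, a ubiquitin ligase that acts on Ifitm3, was highest in progenitor/stem cells (615 CPM, 513 UMIs) against 94.2 CPM in granulocytes. Zmpste24, a protease that acts with Ifitm proteins against viruses, was highest in granulocytes (243 CPM, 98 UMIs) against 63.5 CPM in progenitor/stem cells. Vapa stood at 193 CPM in granulocytes and 153 CPM in progenitor/stem cells. Zdhhc20, a palmitoyltransferase, stood at 228 CPM in B lymphocytes, 220 CPM in T lymphocytes and 6.00 CPM in erythroblasts (4 UMIs).

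The genes nearest to Ifitm6 by population profile also included Ccr2 (overlap 0.973) and F13a1 (0.970), both on the monocyte list, and Lyz2 (0.972). Ly6c2, the nearest gene, is on the monocyte list as well. Within granulocytes, however, Ifitm6 stood at 501 CPM in the 13 wells high in the monocyte list and at 2839 CPM in the wells high in specific granule genes. After Adgrg3, Bri3bp and Gcnt2, the genes nearest to Ifitm1 were Mpo (0.897) and Prtn3 (0.893), which encode primary granule proteins of early myeloid cells. Across granulocyte wells the rank correlation of Ifitm1 with the primary granule list was 0.0766 over 94 wells, and across progenitor/stem wells it was 0.204 over 95 wells.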
